A study of Homo sapiens with 6 samples.

Results

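The alkaline phosphatase genes ALPI, ALPP, ALPPL2 and ALPL are 4 of the 58243 genes counted by RNA sequencing in cells labelled Hep3B, a human hepatocellular carcinoma cell line. They were taken by symbol as the human members of this enzyme family, and the family was chosen on earlier results of this same contrast, so their differences between groups are given as a description. The si-SNHG17-1 group was transfected with an siRNA, a short RNA that guides the breakdown of a matching transcript, here the long noncoding RNA SNHG17. The si-NC group received a control siRNA, and each group had 3 libraries. All 6 libraries came from total RNA of the same line in the same serum-supplemented medium. Only 1 siRNA against SNHG17 was used, so effects of lowering SNHG17 and other effects of that siRNA cannot be told apart. Since no label states that replicates came from separate cultures, p-values here reflect the spread among libraries alone, and that spread may be technical.

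Alkaline phosphatases are metalloenzymes, held on the outer cell surface by a glycosylphosphatidylinositol (GPI) lipid anchor, that release phosphate from many substrates. ALPI is the intestinal enzyme of the brush border, where it removes phosphate from bacterial lipopolysaccharide. ALPP is the placental enzyme of the syncytiotrophoblast and is known as an ectopic product of tumours, and ALPPL2 (newer symbol ALPG) is the placental-like enzyme known from germ cells and germ cell tumours. ALPL encodes the tissue-nonspecific enzyme of liver, bone and kidney, which breaks down pyrophosphate and pyridoxal phosphate.

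ALPP, ALPPL2 and ALPI stand in a row on the plus strand of chromosome 2 and are near copies of each other. By the counted table's GRCh38 coordinates, ALPP (ENSG00000163283.6) lies at chr2:232378534-232382889, ALPPL2 (ENSG00000163286.8) at chr2:232406843-232410714 and ALPI (ENSG00000163295.4) at chr2:232456123-232460032. ALPL (ENSG00000162551.13) lies apart, at chr1:21509372-21578412. The longest annotated transcripts of ALPI, ALPP and ALPPL2 have 11 exons each and that of ALPL has 12. The coding sequences of ALPP and ALPPL2 were identical at 1561 of 1596 aligned bases (97.8%), with a longest identical run of 339 bases. ALPI was identical to ALPP at 89.7% and to ALPPL2 at 89.5% of aligned bases, with longest runs of 75 and 60 bases. ALPL was 64.1% to 64.2% identical to the others. To show how alike the transcripts behind the counts are, bases 52 to 151 of the ALPP coding sequence (GENCODE release 29) follow with the matching bases of the others. Capitals mark bases that differ from ALPP, 1 in ALPPL2 and 9 in ALPI, which are the median numbers over 1407 gap-free stretches of that length.
ALPI coding: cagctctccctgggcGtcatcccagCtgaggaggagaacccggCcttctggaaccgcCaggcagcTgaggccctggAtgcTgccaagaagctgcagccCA
ALPP coding: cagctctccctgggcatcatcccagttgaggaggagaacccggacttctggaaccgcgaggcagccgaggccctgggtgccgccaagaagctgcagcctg
ALPPL2 coding: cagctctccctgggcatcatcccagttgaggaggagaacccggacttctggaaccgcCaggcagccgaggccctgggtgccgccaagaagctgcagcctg

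The 250 bases before each RefSeq transcription start are shown next. Their part in the differences between groups was not tested. They are the plus strand of GRCh38.p14 at chr2:232455903-232456152 for ALPI, chr2:232378501-232378750 for ALPP and chr2:232406594-232406843 for ALPPL2. Capitals mark CCCTGATTTAAACCC, the longest run that all 3 share.
ALPI promoter: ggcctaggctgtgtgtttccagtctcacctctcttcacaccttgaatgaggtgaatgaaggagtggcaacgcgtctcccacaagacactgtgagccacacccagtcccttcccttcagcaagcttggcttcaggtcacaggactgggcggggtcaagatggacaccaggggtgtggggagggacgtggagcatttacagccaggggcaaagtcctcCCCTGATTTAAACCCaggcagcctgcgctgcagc
ALPP promoter: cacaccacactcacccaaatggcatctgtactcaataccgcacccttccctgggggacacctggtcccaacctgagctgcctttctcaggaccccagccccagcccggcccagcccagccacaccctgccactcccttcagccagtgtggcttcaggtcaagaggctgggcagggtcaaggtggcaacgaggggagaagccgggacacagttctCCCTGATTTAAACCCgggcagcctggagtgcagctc
ALPPL2 promoter: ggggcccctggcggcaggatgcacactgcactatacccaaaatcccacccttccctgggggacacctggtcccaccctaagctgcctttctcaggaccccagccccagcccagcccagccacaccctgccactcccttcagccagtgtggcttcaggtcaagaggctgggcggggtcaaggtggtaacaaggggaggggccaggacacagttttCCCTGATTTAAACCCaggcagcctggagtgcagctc

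ALPP and ALPPL2 were identical at 212 of 229 aligned promoter bases (92.6%), and ALPI was 68.5% identical to ALPP and 68.3% to ALPPL2. The shared run began 34 bases before the RefSeq start in ALPI and 36 bases before it in ALPP and ALPPL2. The coordinates used for counting start ALPP at chr2:232378534 and ALPI at chr2:232456123, ahead of these RefSeq starts. Most of the ALPP window and the end of the ALPI window thus lie inside the counted genes. Since the run was picked as common to these 3 windows, its presence in them was fixed in advance. Searched on both strands, it was in 3 of 35116 RefSeq promoter windows of the same length (0.00854%), those of these genes. Most runs of 15 bases are rare in such windows, so this share cannot show that the run is particular to the family. The inner letters TTTAAA of the shared run were in 11.3% of all windows, once in each of the 3 and in none of the 3 ALPL windows. The letters CACCC were in 54.7% of all windows, at 2 places in ALPI, 3 in ALPP and 3 in ALPPL2. The 3 ALPL windows held them at 4, 2 and 0 places. These matches describe the sequence and say nothing about which factor binds there.

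Total counts were between 30207055 and 41620321 in si-SNHG17-1 libraries, and between 38245838 and 42271168 in si-NC libraries. SNHG17 had 307, 338 and 254 counts in si-SNHG17-1 libraries, against 843, 953 and 948 in si-NC libraries (log2 fold change −1.51). Every si-SNHG17-1 library was thus below every si-NC library, as the labels have it. Markers of the labelled cell type were close to absent. Each of 10 hepatocyte and hepatoma markers averaged under 1 CPM (counts scaled to a common library total) over all 6 libraries. TTR and GPC3 had no count in any library. The summed level of the 10 markers was 3.13 to 4.71 CPM in si-SNHG17-1 libraries and 2.19 to 3.32 CPM in si-NC libraries. FGB averaged 1.36 CPM in si-SNHG17-1 libraries and 0.544 CPM in si-NC libraries. ALB averaged 0.558 CPM in si-SNHG17-1 libraries and 0.364 CPM in si-NC libraries.

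The intestinal gene dominated in both groups, and after si-SNHG17-1 it took a still larger part of the family. ALPI was higher while ALPP and ALPPL2 were lower, by nearly equal factors, and ALPL was all but undetected. Of the 4 genes, 3 passed the filter on low counts and all 3 were called at an adjusted p under 0.05, where 10.5% of the 18679 tested genes were. ALPI was called higher, as were 5.25% of tested genes, and ALPP and ALPPL2 were called lower, as were 5.21%. Without TMM scaling, on total counts only, 1168 tested genes were higher and 781 lower, in place of 980 and 974, and the 3 genes kept their directions. Since these genes were chosen by this contrast, nothing is read from those counts.

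ALPI was present at 2112, 2302 and 2153 CPM in si-SNHG17-1 libraries, against 1643, 1540 and 1825 CPM in si-NC libraries. These CPM are scaled by TMM, which sets libraries to a common level for most genes. The groups did not overlap, and si-NC replicate 3, the highest of its group, stood below si-SNHG17-1 replicate 1, the lowest of the other. The means were 2189 ± 100.2 CPM after si-SNHG17-1 and 1669 ± 144 CPM in si-NC (SD, n = 3 each), which is 131.1% of the si-NC level and a fitted log2 fold change of 0.39 (SE 0.07). Its call was the least secure of the 3: without si-SNHG17-1 replicate 1, 2 or 3 it was lost, with log2 fold changes of 0.42, 0.36 and 0.42 in these fits. It was also lost with a replicate block, at a log2 fold change of 0.39. By mean CPM over all libraries ALPI held rank 14 of 18679 tested genes, and per kb of transcript it held rank 24 of 18619.

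ALPP had 465.5, 516.7 and 487.3 CPM in si-SNHG17-1 libraries, against 749.7, 745.8 and 801.4 CPM in si-NC libraries. All si-SNHG17-1 libraries lay below all si-NC libraries with a wide gap. The means were 489.8 ± 25.7 CPM after si-SNHG17-1 and 765.7 ± 31.0 CPM in si-NC (SD, n = 3 each), leaving 64.0% of the si-NC level, and the log2 fold change was −0.64 (SE 0.06). ALPP held rank 130 by CPM and rank 192 per kb.

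ALPPL2 had 74.1, 75.4 and 72.6 CPM in si-SNHG17-1 libraries, against 118.7, 116 and 117.4 CPM in si-NC libraries. It was the steadiest of the 3 within groups, with a coefficient of variation of 1.89% among si-SNHG17-1 libraries and 1.16% among si-NC libraries, where ALPI had 4.58% among si-SNHG17-1 libraries and 8.63% among si-NC libraries. The means were 74.0 ± 1.40 CPM after si-SNHG17-1 and 117.4 ± 1.36 CPM in si-NC (SD, n = 3 each), leaving 63.1%, and the log2 fold change was −0.67 (SE 0.07). ALPP and ALPPL2 kept their direction and their call in all 13 alternative fits.

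ALPL, the form known from liver, had no count in 5 libraries and 9 counts in si-SNHG17-1 replicate 3. Those 9 counts are 0.293 CPM (95% exact Poisson interval 0.134 to 0.556). By the same interval, a count of 0 allows up to 0.0876 to 0.0979 CPM in the other libraries. The floor drawn in the figure, at 3 counts, is 0.0712 to 0.0796 CPM in those libraries. Such intervals and floors cover counting error only. ALPL did not pass the filter, no fold change is given, and a difference between groups was not detectable at this depth.

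**Figure D1:**
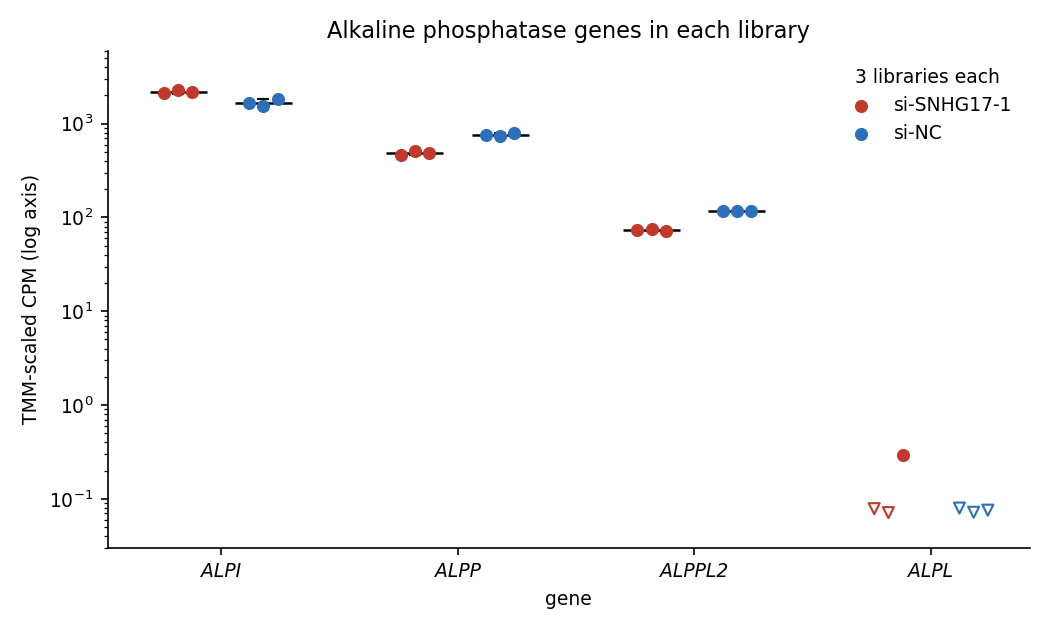
Levels of the 4 genes in each library, as TMM-scaled CPM on a log axis, with si-SNHG17-1 in red left of si-NC in blue. Points are libraries, bars are the mean ± SD of 3, and open triangles mark libraries with no ALPL count at the level of 3 counts. ALPI is above si-NC in all 3 si-SNHG17-1 libraries, and ALPP and ALPPL2 are below it.

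Per kb of the longest transcript the order of the levels was ALPI, ALPP, ALPPL2 and ALPL in every library, and no neighbours in that order overlapped. ALPI stood at 858.3 ± 39.3 CPM per kb in si-SNHG17-1 libraries and 654.6 ± 56.5 in si-NC libraries (SD, n = 3 each). ALPP stood at 164.9 ± 8.64 and ALPPL2 at 29.7 ± 0.561 CPM per kb in si-SNHG17-1 libraries, against 257.7 ± 10.4 and 47.1 ± 0.545 in si-NC libraries. As shares of the family's level per length, ALPI made up 81.6%, 81.6% and 81.4% in si-SNHG17-1 libraries, against 68.2%, 67.0% and 69.3% in si-NC libraries. ALPP made up 15.4%, 15.7% and 15.8% in si-SNHG17-1 libraries, against 26.7%, 27.8% and 26.1% in si-NC libraries. ALPPL2 made up 2.82% ± 0.0995 in si-SNHG17-1 libraries and 4.92% ± 0.318 in si-NC libraries (SD, n = 3 each). The family's make-up thus moved by 13.3 percentage points towards the intestinal gene, with no overlap between groups.

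Ratios of counts within a library need no scaling between libraries, and they show the same shift. ALPI had 4.54, 4.46 and 4.42 counts per ALPP count in si-SNHG17-1 libraries, against 2.19, 2.06 and 2.28 in si-NC libraries. The mean ratio was 4.47 ± 0.0606 after si-SNHG17-1 and 2.18 ± 0.106 in si-NC (SD, n = 3 each), 2.05-fold higher. ALPI against ALPPL2 gave 29.6 ± 1.02 in si-SNHG17-1 libraries and 14.2 ± 1.18 in si-NC libraries. The placental pair kept its proportion: ALPPL2 had 0.151 ± 0.00692 counts per ALPP count in si-SNHG17-1 libraries and 0.154 ± 0.00619 in si-NC libraries. The groups overlapped in this ratio, which ran from 0.146 to 0.159 over all 6 libraries. ALPP and ALPPL2 share identical stretches, and the part of reads matching both genes in this ratio was not tested.

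**Figure D2:**
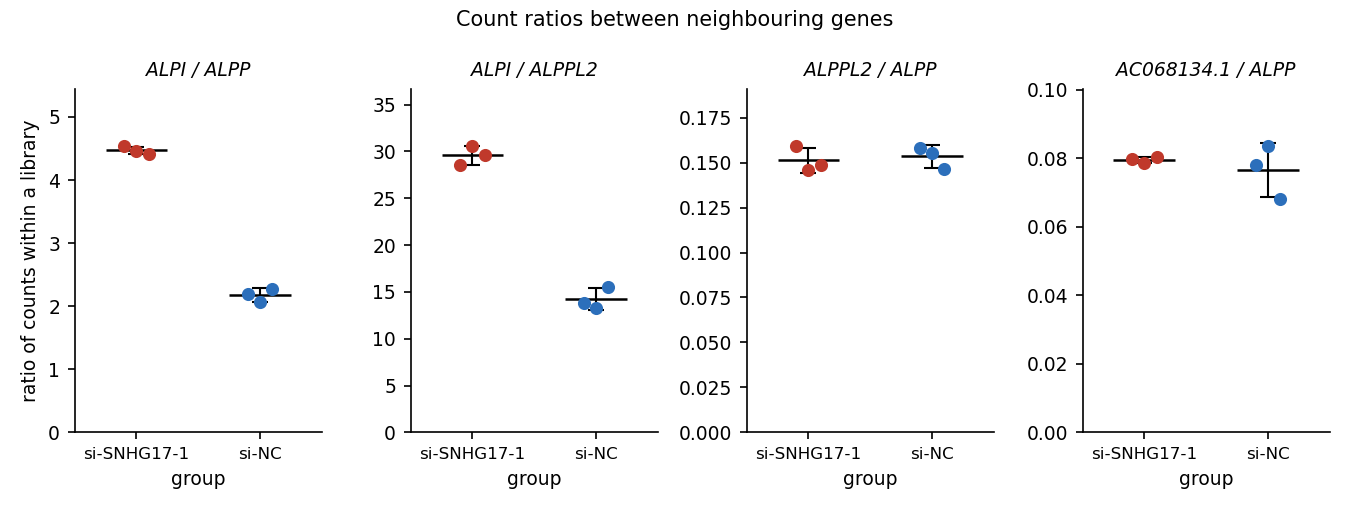
Ratios of raw counts within each library, for 4 pairs of genes of the chromosome 2 cluster, with si-SNHG17-1 left of si-NC. Points are libraries and bars are the mean ± SD of 3, on axes that start at 0. ALPI against ALPP is 4.42 to 4.54 after si-SNHG17-1 and 2.06 to 2.28 in si-NC, and the 2 ratios on the right overlap.

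The sum of the 3 genes was higher in mean after si-SNHG17-1, at 2753 ± 126.3 CPM, against 2552 ± 174.4 CPM in si-NC (SD, n = 3 each). ALPI, ALPP and ALPPL2 together had 2651, 2894 and 2712 CPM in si-SNHG17-1 libraries, against 2511, 2402 and 2743 CPM in si-NC libraries. The groups overlapped, since si-NC replicate 3 was above si-SNHG17-1 replicates 1 and 3. The log2 fold change of the sum was 0.11 (SE 0.06), and it was not called in the main fit or in any of 13 alternatives (0.07 to 0.16). The cluster supplied 0.268%, 0.293% and 0.276% of all counts in si-SNHG17-1 libraries and 0.247%, 0.237% and 0.270% in si-NC libraries. In bulk RNA, fewer cells carrying a transcript and less of it per cell cannot be told apart.

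Because of the near-identical copies, part of the counts is uncertain. Of all 100-base windows of the longest transcript, 17.5% in ALPP and 15.8% in ALPPL2 were found letter for letter in another gene, and none in ALPI or ALPL. Of the ALPP windows, 13.2% were in ALPPL2. At 50 bases the shares were 32.4% in ALPP, 29.3% in ALPPL2 and 1.52% in ALPI. Of the 50-base ALPP windows, 24.5% were in ALPPL2 and 1.3% in ALPI, and others matched only genes outside the family. The sources used here give neither the read length nor how reads that match several genes were counted, and the part of such reads in the ALPP and ALPPL2 values was not tested. ALPP also shares sequence with AC068134.1, an antisense gene inside it, of whose 680 exon bases 631 (92.8%) lie in ALPP exons. AC068134.1 had 39.0 ± 1.75 CPM in si-SNHG17-1 libraries and 58.4 ± 3.84 CPM in si-NC libraries (SD, n = 3 each), a log2 fold change of −0.59 (SE 0.09, edgeR adjusted p = 0.0109). That call was lost without si-SNHG17-1 replicate 1 (adjusted p = 0.0650, edgeR) or 3 (adjusted p = 0.0538, edgeR). Its counts were 0.0796 ± 0.000868 of those of ALPP in si-SNHG17-1 libraries and 0.0765 ± 0.00778 in si-NC libraries. Without strand, whose use in counting the sources used here do not give, the reads of this pair cannot be told apart.

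Within 250 kb of its 3 members the table has 21 other genes, of which 12 were tested, 0 were called higher and 1 was called lower, AC068134.1, beside 10.5% of all tested genes called in either direction. PRSS56, a trypsin-like serine protease gene further along the same strand, was the most abundant of them. It had 374.1, 407.5 and 386.1 CPM in si-SNHG17-1 libraries, against 433.4, 409.8 and 495.3 CPM in si-NC libraries, with si-NC replicate 2 only just above the highest si-SNHG17-1 library. Its log2 fold change was −0.20 (SE 0.08, edgeR adjusted p = 0.186). ALPI had 5.62 ± 0.0411 counts per PRSS56 count in si-SNHG17-1 libraries and 3.74 ± 0.0548 in si-NC libraries (SD, n = 3 each). Genes for subunits of the muscle acetylcholine receptor follow, CHRND (log2 fold change −0.71, SE 0.29) and CHRNG (0.34, SE 0.63), neither called, and the highest si-SNHG17-1 library of CHRND (2.70 CPM) was just below its lowest si-NC library (2.78 CPM). EFHD1, a calcium-binding mitochondrial protein gene, had a log2 fold change of −0.76 (SE 0.22, edgeR adjusted p = 0.0677) and was called lower with DESeq2 (adjusted p = 0.0246). It had 3.85 to 6.44 CPM in si-SNHG17-1 libraries and 8.67 to 9.61 CPM in si-NC libraries, so that CHRND and EFHD1 had negative log2 fold changes of about the size of those of ALPP and ALPPL2. The translation regulators EIF4E2 and GIGYF2, which act together to repress messenger RNAs, had −0.16 and −0.17, and DIS3L2, an RNA exonuclease, had 0.19. The remaining neighbours TIGD1, ECEL1, AC073254.1 and AC068134.3 were not called either, with log2 fold changes of −0.49 to 0.47. A p that misses the threshold does not show that these genes were unchanged.

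**Figure D3:**
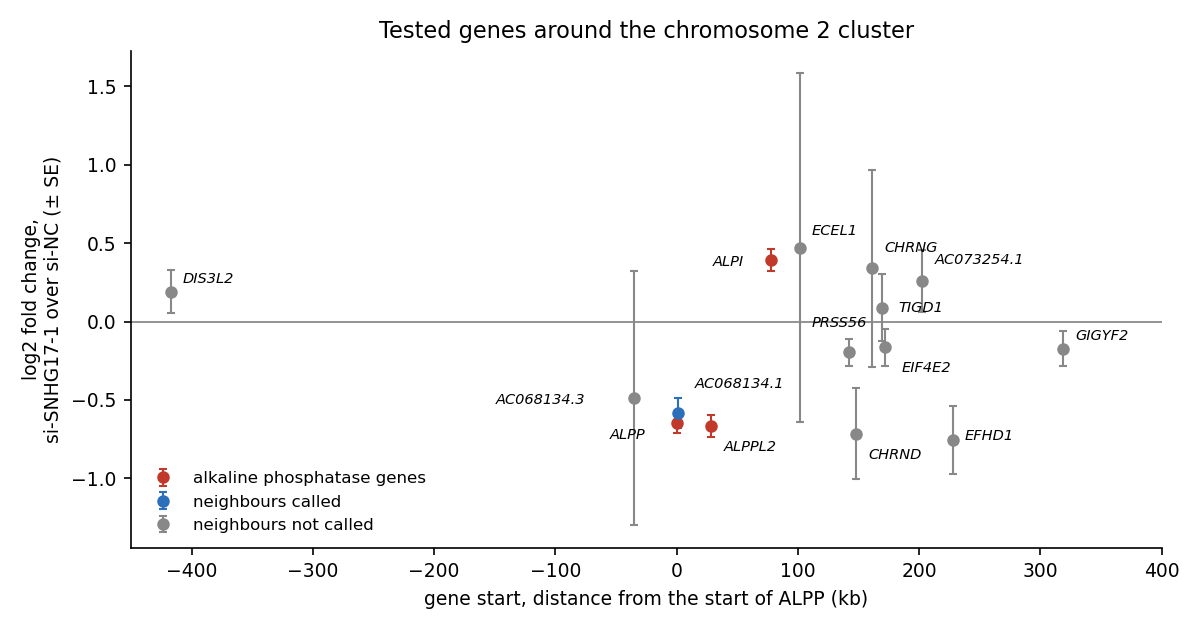
Log2 fold change ± SE, si-SNHG17-1 over si-NC, of the tested genes around the chromosome 2 cluster against the distance of their start from that of ALPP in kb. ALPP and ALPPL2 sit at −0.64 and −0.67, ALPI at 0.39, and only AC068134.1, inside ALPP, is called among the 12 neighbours.

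Around ALPL on chromosome 1, in contrast to ALPL itself, several genes were well counted. The table has 17 other genes within 250 kb, of which 8 were tested, 1 was called higher and 1 lower, beside 10.5% of all tested genes. ECE1, the endothelin-converting protease, had 331.1, 319.5 and 283.2 CPM in si-SNHG17-1 libraries, against 190.5, 176.7 and 188.7 CPM in si-NC libraries, without overlap. It rose by 0.75 on the log2 scale (SE 0.08, edgeR adjusted p = 0.00298). HSPG2, which encodes the basement membrane proteoglycan perlecan, had 253.1, 269.1 and 227.2 CPM in si-SNHG17-1 libraries, against 409.5, 354.7 and 352.4 CPM in si-NC libraries. It fell by 0.58 on the log2 scale (SE 0.09, edgeR adjusted p = 0.0108), a call lost without si-SNHG17-1 replicate 1 (adjusted p = 0.0551, edgeR). The other tested genes, USP48, RAP1GAP, NBPF3, NBPF2P, HS6ST1P1 and LDLRAD2, were not called, with log2 fold changes of −0.45 to 0.35.

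Tested genes of at least 2 CPM on average were searched, without those whose symbols are clone names or begin with LINC or LOC. AC068134.1 was thus left out. Among the 12677 genes searched, those whose log2 CPM ran most like each member over the 6 libraries were picked by Pearson correlation. This is a description of libraries that fall into 2 groups. HMGN2, a nucleosome-binding protein (r = 0.999), P4HA2, a collagen prolyl hydroxylase subunit (0.998), SPATA33 (0.998), NELFB, a subunit of the negative elongation factor (0.997), and NT5DC2 (0.997) were nearest to ALPI. CCT7, a chaperonin subunit (0.998), PCBP1, a poly(C)-binding protein (0.998), SNX1, a sorting nexin (0.998), C1QBP (0.997) and XRCC6, the Ku70 subunit of DNA repair (0.997), were nearest to ALPP. PPM1G, a nuclear protein phosphatase (0.9995), BASP1, a membrane-bound signalling protein (0.999), PGD, an enzyme of the pentose phosphate pathway (0.999), RPL26, a ribosomal protein (0.999), and LMO4, a transcriptional cofactor (0.999), were nearest to ALPPL2. Such closeness was common: 233 genes reached r above 0.95 with ALPI, 520 with ALPP and 577 with ALPPL2. Likeness in the course over libraries did not mean a like size, as BASP1 and LMO4 had log2 fold changes of −1.37 and −1.26, against −0.67 for ALPPL2.

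The lists of related genes are read beside the 10.5% of all tested genes that were called, 5.25% higher and 5.21% lower, and no list's count is read as a result about it. Of 31 genes of GPI anchor assembly and remodelling, which supply the anchor of these enzymes, 30 were tested, 2 were called higher and 1 lower, with a median log2 fold change of 0.04 against −0.0017 over all tested genes. The calls included subunits of the transamidase, the complex that joins the anchor to the protein. GPAA1 had 99.7, 104.1 and 99.2 CPM in si-SNHG17-1 libraries, against 67.8, 68.1 and 76.2 CPM in si-NC libraries, and rose by a log2 fold change of 0.51 (SE 0.08, edgeR adjusted p = 0.0105). PIGS had 55.4, 60.6 and 56.6 CPM in si-SNHG17-1 libraries, against 101, 84 and 91.4 CPM in si-NC libraries, and fell by 0.68 on the log2 scale (SE 0.10, edgeR adjusted p = 0.00681). Neither gene overlapped between groups. The call of GPAA1 was lost without si-SNHG17-1 replicate 1 (adjusted p = 0.0527, edgeR), and that of PIGS was kept whichever library was left out. The other subunits of that complex, named here after their values were seen, were not called: PIGK had a log2 fold change of 0.46 (SE 0.30), PIGU 0.20 (SE 0.12) and PIGT −0.16 (SE 0.08). DPM2, a subunit that regulates the synthesis of dolichol phosphate mannose, the mannose donor for the anchor, was called higher at 0.52 (SE 0.10, edgeR adjusted p = 0.0181). That call was lost without si-SNHG17-1 replicate 2 or 3 or without si-NC replicate 2 or 3 (adjusted p of 0.0523 to 0.0643, edgeR).

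Of 54 genes for other proteins carried by the same kind of anchor 37 were tested, 2 were called higher and 3 lower, beside 10.5% of all tested genes, with a median log2 fold change of 0.12 against −0.0017 over all tested genes, and 10 had no count in any library. LYPD6, a Wnt signalling modulator, had 19.2, 16.6 and 17 CPM in si-SNHG17-1 libraries, against 6.34, 9.08 and 5.40 CPM in si-NC libraries. It rose by a log2 fold change of 1.34 (edgeR adjusted p = 0.00993) and kept its call whichever library was left out, at adjusted p up to 0.0499. MSLN, which encodes the tumour antigen mesothelin, had 88.0, 84.1 and 81.4 CPM in si-SNHG17-1 libraries, against 120.3, 106.6 and 120.2 CPM in si-NC libraries. It fell by 0.45 on the log2 scale (edgeR adjusted p = 0.0169), a call lost without si-SNHG17-1 replicate 1, 2 or 3 or without si-NC replicate 3 (adjusted p of 0.0519 to 0.0716, edgeR). MELTF, a transferrin-like protein, rose by 0.39, CD109, a protease inhibitor of the alpha-2-macroglobulin family, fell by 0.36 and LY6E, a Ly6 family protein, fell by 0.38 on the log2 scale (edgeR adjusted p of 0.0282, 0.0344 and 0.0366). MELTF lost its call without si-SNHG17-1 replicate 1 or 2 or without any 1 of the si-NC libraries (adjusted p of 0.0536 to 0.0981, edgeR). CD109 and LY6E lost theirs whichever library was left out, at adjusted p of 0.0507 to 0.134 (edgeR). The most abundant protein gene of the list, CD55, a complement regulator, had 935.2 ± 80.0 CPM in si-SNHG17-1 libraries and 1108 ± 108.8 CPM in si-NC libraries. It was not called, at a log2 fold change of −0.24 (SE 0.09), though its groups did not overlap.

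Of 26 genes that handle phosphate, pyrophosphate and pyridoxal phosphate, known product and substrates of these enzymes, 20 were tested, 0 were called higher and 2 lower, beside 10.5% of all tested genes, and the median log2 fold change was 0.01. PPA1, the cytosolic inorganic pyrophosphatase, had 209.8, 207.8 and 187 CPM in si-SNHG17-1 libraries, against 258.2, 263.9 and 268.6 CPM in si-NC libraries. PDXK, the kinase that makes pyridoxal phosphate, had 232.4, 232.2 and 209 CPM in si-SNHG17-1 libraries, against 300.2, 291.9 and 359.1 CPM in si-NC libraries. Neither overlapped between groups, and they fell by 0.39 (SE 0.07) and 0.50 (SE 0.10) on the log2 scale (edgeR adjusted p of 0.0175 and 0.0211). Without si-SNHG17-1 replicate 1, 2 or 3 both lost the call, and PPA1 lost it also without si-NC replicate 3 (adjusted p of 0.0512 to 0.0908 in these fits, edgeR). ANKH, which exports pyrophosphate, had 246.9 ± 3.63 CPM in si-SNHG17-1 libraries and 244.5 ± 9.51 CPM in si-NC libraries, and ENPP1, which makes pyrophosphate outside the cell, had 41.5 ± 3.95 CPM in si-SNHG17-1 libraries and 40.6 ± 5.40 CPM in si-NC libraries. Both were named after their values were seen, and their groups overlapped.

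Of 17 genes for other phosphatases of surface, lysosome and cytosol 14 were tested, 1 was called higher and 0 lower, beside 10.5% of all tested genes, and the median log2 fold change was 0.08. PLPP3, a surface enzyme that degrades lysophosphatidic acid, had 26.0, 25.6 and 27.4 CPM in si-SNHG17-1 libraries, against 19.8, 15.1 and 16.4 CPM in si-NC libraries. The groups did not overlap, and the log2 fold change was 0.63 (SE 0.14, edgeR adjusted p = 0.0302). Without si-NC replicate 1 the call held, and without any 1 of the other libraries it was lost (adjusted p of 0.0766 to 0.0895, edgeR). The list held 2 calls with other scalings, with a filter at 1 CPM and with DESeq2.

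Of 15 transcription factor genes known for alkaline phosphatase genes 10 were tested, 0 were called higher and 1 lower, beside 10.5% of all tested genes, and the median log2 fold change was 0.08. THRA, the thyroid hormone receptor alpha, had 56.2, 64.5 and 61.3 CPM in si-SNHG17-1 libraries, against 86.1, 84.3 and 82.9 CPM in si-NC libraries. It did not overlap between groups and fell by 0.48 on the log2 scale (SE 0.08, edgeR adjusted p = 0.0148), a call lost without si-SNHG17-1 replicate 1 or 3 (adjusted p of 0.0731 and 0.0621, edgeR). CDX1 and CDX2, the intestinal homeobox factors, and the bone factors DLX5 and MSX2 had no count in any library. The gut factors KLF5 and KLF4 were present at 311.1 ± 16.5 and 49.1 ± 2.99 CPM in si-SNHG17-1 libraries, against 291.9 ± 34.6 and 47.0 ± 7.85 CPM in si-NC libraries, and TFAP2A, known from trophoblast, was at 179.2 ± 13.7 CPM in si-SNHG17-1 libraries and 181.8 ± 3.51 CPM in si-NC libraries. None of these 3 was called, and they were named after their values were seen.

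Markers of the tissues the enzymes are named for were also read. Of 10 intestinal epithelium markers only VIL1, which encodes the brush border protein villin, passed the filter, and CDX1, CDX2, SI and KRT20 had no count. VIL1 had 13.1, 11.4 and 15.7 CPM in si-SNHG17-1 libraries, against 6.00, 6.97 and 6.43 CPM in si-NC libraries, and was called higher (log2 fold change 1.05, SE 0.17, edgeR adjusted p = 0.0107, and up to 0.0464 with a library left out). That is 1 call from 1 tested gene, beside 10.5% of all tested genes called. The summed level of these markers was 11.7 to 15.9 CPM in si-SNHG17-1 libraries and 6.55 to 7.79 CPM in si-NC libraries. Most of that sum was VIL1, and the other 9 markers averaged under 1 CPM each, so it is not a second result beside VIL1. The part of these markers in the ALPI result was not tested. Of 30 trophoblast and germ cell genes 15 were tested, 0 were called higher and 1 lower, beside 10.5% of all tested genes, with a median log2 fold change of 0.0027. KRT7, a keratin of simple epithelia including trophoblast, had 1128, 1118 and 1056 CPM in si-SNHG17-1 libraries, against 1616, 1650 and 1896 CPM in si-NC libraries, without overlap. It fell by 0.65 on the log2 scale (SE 0.07, edgeR adjusted p = 0.00332) and kept its call whichever library was left out. Other genes of the list went either way without overlap and without a call. TFAP2C (log2 fold change 0.49, SE 0.20) and TEAD4 (0.22, SE 0.08) were higher, and GATA2 (−0.24, SE 0.09) was lower, all named after their values were seen. The summed level of this list was 1491 to 1571 CPM in si-SNHG17-1 libraries and 2037 to 2351 CPM in si-NC libraries, most of it KRT7. Its 10 genes without a count included the chorionic gonadotropin genes CGB3, CGB5 and CGB8, the placental hormone enzymes CYP19A1 and HSD3B1, and the fusion protein gene ERVFRD-1, and the part of this list in the ALPP and ALPPL2 results was not tested. Of 10 osteoblast markers 5 were tested, 1 was called higher and 0 lower, beside 10.5% of all tested genes. The called gene was COL1A1, the type I collagen chain (log2 fold change 0.36, edgeR adjusted p = 0.0485), a call lost whichever library was left out (adjusted p of 0.0641 to 0.138, edgeR). The osteoblast markers summed to 118.9 to 137.8 CPM in si-SNHG17-1 libraries and 107.2 to 111.9 CPM in si-NC libraries, most of it COL1A1. IBSP and COL1A2 had no count.

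**Figure D4:**
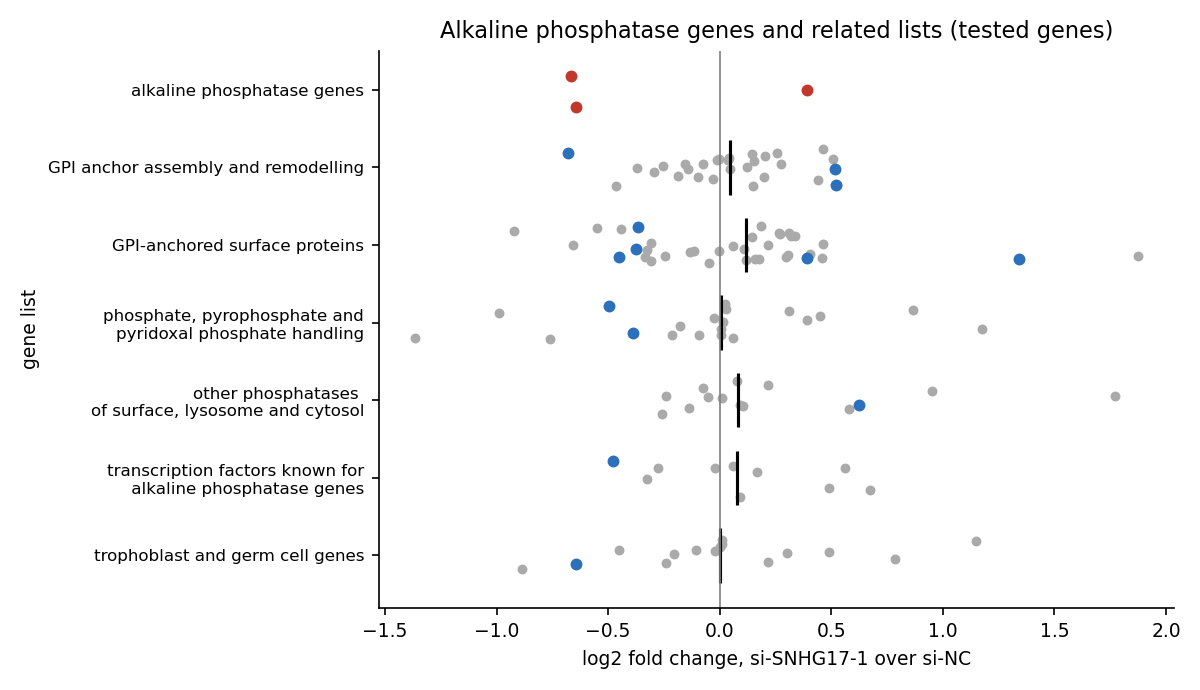
Log2 fold change, si-SNHG17-1 over si-NC, of each tested gene of the family (top row) and of the 6 lists of related genes. Coloured points are called, grey points are not, and black lines are list medians, which lie between 0.00 and 0.12; ALPI is at 0.39 and ALPP and ALPPL2 are at −0.64 and −0.67.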

How the data were processed

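Total RNA of cells labelled Hep3B was sequenced in 6 libraries, grouped by their titles. The authors deposited raw counts per gene, made from reads aligned with HISAT2 to GRCh38, per the submitters' processing notes. The version of HISAT2, the counting program, its annotation and its use of strand are not given in these sources, and each of them bears on counts of near-identical or overlapping genes. Libraries of the same group differed beyond sampling noise, with a chi-square of 26.6 to 55.2 per degree of freedom.

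The comparison used edgeR 4.0.16 (R 4.3.3): filterByExpr (minimum count 10, minimum total 15), TMM scaling, the quasi-likelihood F test without a replicate block, and Benjamini-Hochberg adjustment over all 18679 tested genes. A call is an adjusted p under 0.05. SE was derived from F and the log2 fold change. The summed cluster was fitted as 1 gene in place of its members. The steps were tested on simulated data.

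Transcript lengths, exons and coding sequences came from GENCODE release 29 and promoters from RefSeq (GRCh38.p14), both matched for all 4 genes. Coding and promoter sequences were aligned end to end with Biopython, with terminal gaps free, and identity was counted over aligned bases.

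Members, lists and tests were chosen with earlier results of these data known. Named genes are the members, SNHG17, up to 3 called genes per direction in each of 6 lists, tested neighbours within 250 kb, and the 5 genes most like each member (log2 CPM, prior count 2). Called genes of the marker lists were added after their values were seen. Alternatives were other scalings, other filters, DESeq2 1.42.0, limma-voom (limma 3.58.1), a replicate block and each library left out.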

Additional observations from a re-analysis of the deposited data

How the results depend on the processing

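Direction held in every alternative for ALPI, ALPP, ALPPL2 and their sum. ALPI kept its call in 9 of 13 and lost it with the replicate block (log2 fold change 0.3935) and without si-SNHG17-1 replicate 1, 2 or 3, with values of 0.3359 to 0.459 over all libraries left out. Of 656 alternative fits of the 51 other named genes, 85 lost the call, 4 gained it and 0 that were called changed sign. ALPL has no value here, since it did not pass the filter.

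Calls across the table fell to 1297 (627 lower) with no filter and to 532 (273 higher, 259 lower) with the replicate block. With a library left out they numbered 577 to 1399 (313 to 694 higher, 264 to 705 lower), where fewer libraries were compared. With total counts only, 1168 were higher and 781 lower, so 59.9% were higher against 50.2% with TMM, and the median log2 fold change over all genes was 0.0394 in place of −0.0017. The same replicate number did not pair libraries (correlations of deviations −0.0172, −0.0367 and −0.0153). The block left 1 call in GPI anchor assembly, 1 in GPI-anchored proteins, 0 in phosphate handling, 0 in other phosphatases and 0 in transcription factors, and VIL1 was not called with it (adjusted p = 0.0547, edgeR). DESeq2 called 5 of GPI anchor assembly and 8 of GPI-anchored proteins, where no filter gave 3. Other phosphatases had 2 calls with median-of-ratios factors, total counts only, the 1 CPM filter or DESeq2. With a library left out, calls numbered 1 to 2 in GPI-anchored proteins, 0 to 2 in phosphate handling, 0 to 1 in other phosphatases and 0 to 1 in transcription factors. The cause of these shifts was not tested.

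Without length correction ALPI made up 79.5% of the family in si-SNHG17-1 libraries and 65.3% in si-NC libraries, ALPP 17.8% and 30.0%, and ALPPL2 2.69% in si-SNHG17-1 libraries. Windows of 50 bases found in another gene were 1.52% of ALPI, 32.4% of ALPP and 29.3% of ALPPL2, and windows of 150 bases 9.14% of ALPP and 8.49% of ALPPL2. Depth limits ALPL most, at 0 to 9 counts.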

Other observations

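LDLRAD2, a neighbour of ALPL whose span overlaps that of HSPG2, had 824, 587 and 596 counts in si-SNHG17-1 libraries, and 24, 805 and 1199 counts in si-NC libraries. The count of 24 belonged to si-NC replicate 1, which had 15429 counts for HSPG2, and other genes were not searched for such drops. ALPL was counted in 1 of 6 libraries only, si-SNHG17-1 replicate 3, the library with the lowest total count.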
